A study of Mus musculus with 6 samples.

Results

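Voltage-gated sodium, potassium and HCN channels were described in whole spinal cord of mice with and without Nogo-A, the myelin-associated protein encoded by Rtn4 that limits the outgrowth of axons. The members were 26 channel subunit genes out of 18162 genes named on the array. They were chosen by family and not by how they moved, with earlier results of these data known. The genes were measured through probe sets, groups of short oligonucleotides that each report on 1 transcript or a part of it. Of the 45101 probe sets of the array, 67 belonged to 25 of the 26 genes, and Hcn4 is not analysed here because no probe set was annotated to it. Of these 67, 46 passed a filter on low values, which asked that the signal reach the 50th percentile of its array in 2 or more of the 3 mice of either genotype. They stood for 22 genes. Of the 46, 43 passed in both genotypes and 3 in knockout alone, which were the dim probe sets of Scn3b, Kcnc4 and Kcnd3.

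The study compared the intact, untreated spinal cord of adult male C57Bl/6 wild type mice with that of male Nogo-A knockout mice on the C57Bl/6 strain, all aged 4 months. There were 3 mice of each genotype with 1 Affymetrix whole-genome mouse array each. Both groups were naive, and neither carried another allele or received an agent, as far as the labels say. The construct behind the knockout was not given in the sources used here.

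Voltage-gated sodium channels carry the inward current that starts and propagates the action potential. Their pore is formed by an alpha subunit, and beta subunits tune gating and anchor the channel to the cell surface. Voltage-gated potassium channels end the action potential and set the firing rate, and in myelinated axons of the spinal cord those of the Kv1 family lie beside the node under the myelin sheath. HCN channels open on hyperpolarization and carry the pacemaker current that sets resting potential and rhythmic firing.

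The targeted gene checked the labels. The Rtn4 probe set that was lost in knockout had signals of 3560, 2790 and 2802 in wild type and 78.2, 9.17 and 5.08 in knockout, and the other 4 tested probe sets of Rtn4 were brighter in every knockout array than in every wild type array. The lost probe set was the only one of 23525 tested that passed an adjusted p under 0.05 (limma, Benjamini-Hochberg adjusted p = 0.00975), and it did not pass when wild type replicate 1 or 2 or knockout replicate 2 was left out. Wild type replicate 3 stood apart, with a mean correlation of 0.93 with the other arrays against 0.952 to 0.961 for the rest, and dim signals on the wild type arrays were higher than on the knockout arrays (5th percentile 5.26 to 19.98 against 4.57 to 4.92). Differences below are knockout minus wild type on the log2 scale, after each array was divided by the median of its tested probe sets. On this scale the median over all tested probe sets was 0.034. Division by the median of all probe sets, dim ones included, moved it to 0.23 and is treated as an alternative.

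No channel gene passed the threshold. Of 46 tested channel probe sets, 0 passed an adjusted p under 0.05 in limma in either direction, where the background over all tested probe sets was 0% called higher and 0.00425% called lower. At an unadjusted p under 0.05, 4 of the 46 were higher in knockout and 0 were lower, against 4.78% and 3.48% of all tested probe sets. Those 4 were the probe sets of Hcn2, Kcnab2 and Kcnab3 with the highest signal of their gene, and the dimmest tested probe set of Kcna2. Counted by gene these were 3 of 22 higher and 0 lower, against 5.53% and 2.92% of all tested genes.

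The split between higher and lower probe sets depended on the scaling, although 4 channel probe sets higher and 0 lower were also found with the deposited scaling. Over all tested probe sets it was 1125 higher and 819 lower with the scaling used here, 1013 and 937 (4.31% and 3.98%) with the deposited scaling, and 2805 and 265 (11.9% and 1.13%) with the median of all probe sets, where 8 channel probe sets were higher and 0 lower. Among the channel probe sets the count without wild type replicate 2 was 1 higher and 1 lower, against 3.15% and 2.13% of all tested probe sets. Without wild type replicate 3 it was 7 higher and 0 lower, against 6.13% and 5.11%.

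Most of the tested channel genes had small differences. For each gene 1 probe set, the tested one with the highest mean signal, stood for the gene. The median difference of the 22 genes was 0.079, a fold of 1.06, and that of all 11636 tested genes was 0.054, a fold of 1.04. Differences of the channel genes ran from -0.20 in Scn3a to 0.55 in Hcn2, with 17 above 0 and 5 below, or 77.3% above 0 against 60.9% of all tested genes. In 17 of the 22 the difference was under 0.2 either way, as in 64.5% of all tested genes. The 95% interval of the difference lay within 1.5-fold either way in 18 of the 22, the exceptions being Hcn2, Kcnab2, Kcnab3 and Kcnq5, and it lay within 2-fold in 22 of 22. Over all tested genes these shares were 61.2% and 88.7%. Shares over genes of a like signal level were not computed. The median of the channel genes was 0.012 without wild type replicate 3 and 0.16 without wild type replicate 1.

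**Figure D1:**
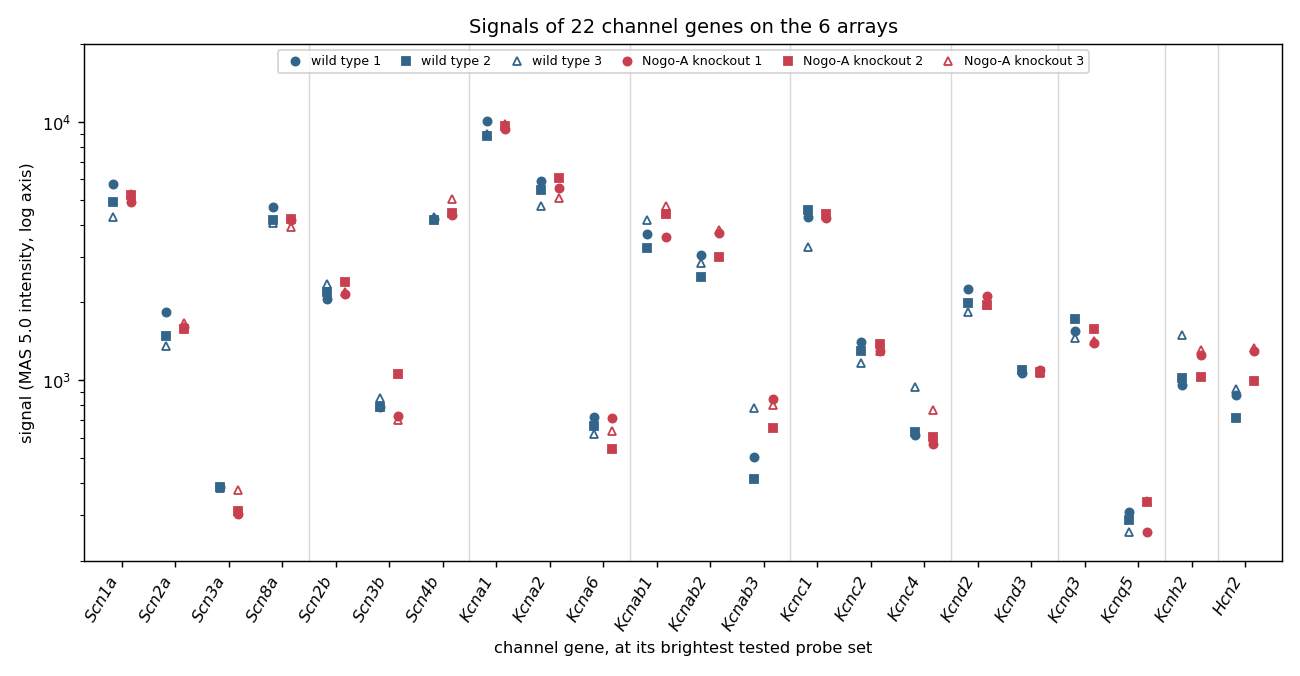
Signals (MAS 5.0 intensity, log axis) of the 22 tested channel genes at the tested probe set with the highest mean, 1 point per array, with blue for wild type, red for Nogo-A knockout and grey lines between subunit families. The 3 knockout points of Hcn2 (992 to 1330) lie above its 3 wild type points (714 to 923), while those of Kcnd3 (1067 to 1094) lie within the wild type range of 1071 to 1097 or just under it.

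Hcn2, a pacemaker channel subunit widely expressed in neurons, had the largest difference among the 22 genes. Its 1 probe set had signals of 878, 714 and 923 in wild type and 1300, 992 and 1330 in knockout. All 3 knockout arrays were above every wild type array, and knockout replicate 2 was the closest to wild type. The means were 838 ± 110 and 1207.2 ± 187 (SD, n = 3 each), a fold of 1.46 with a log2 difference of 0.55 and a 95% interval of 0.21 to 0.89. It did not pass over all tested probe sets (limma, Benjamini-Hochberg adjusted p = 0.598, range over the alternatives 0.193 to 0.965). Leaving out each array in turn gave differences of 0.44 to 0.68.

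Hcn3, another pacemaker subunit, had 1 probe set that did not pass the filter. Its signals were 40.55 to 414.25 over the 6 arrays, and the highest lay at percentile 68.4 of its array. The HCN family was thus tested through Hcn2 alone.

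The cytoplasmic beta subunits of Kv1 channels, which bind the pore-forming subunits, help them reach the axon and can speed their inactivation, were all above 0. Kcnab2 had signals of 3065, 2514 and 2853 in wild type and 3710, 2997 and 3821 in knockout at its brighter probe set. Knockout replicates 1 and 3 were above every wild type array and knockout replicate 2 lay within the wild type range. The fold was 1.27, with a log2 difference of 0.34 and a 95% interval of 0.059 to 0.63 (limma adjusted p = 0.598, range over the alternatives 0.209 to 0.965). With the median of all probe sets the difference was 0.54. Its dimmer probe set read 993 to 1974 in wild type and 1326 to 1908 in knockout, with a difference of 0.21.

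Kcnab3 had signals of 505, 413 and 778 in wild type and 847, 653 and 804 in knockout at its brighter probe set. Wild type replicate 3 lay among the knockout values and the other 2 wild type arrays lay below them. The fold was 1.42, with a log2 difference of 0.51 and a 95% interval of 0.058 to 0.96 (limma adjusted p = 0.599, range over the alternatives 0.212 to 0.965). The difference was 0.31 without wild type replicate 2 and 0.74 without wild type replicate 3. The dimmer probe set of Kcnab3 went the other way, with signals of 345, 467 and 283 in wild type and 335, 327 and 288 in knockout and a difference of -0.15 (95% interval -0.63 to 0.33). Kcnab3 was the only one of the 15 genes with several tested probe sets where one had an unadjusted p under 0.05 and another had the opposite sign.

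Kcnab1 completed the family with 2 tested probe sets, both above 0. The brighter read 3675, 3236 and 4157 in wild type and 3578, 4379 and 4718 in knockout, with a difference of 0.22 (95% interval -0.07 to 0.51). The dimmer read 1187, 1141 and 1218 in wild type and 1530, 1303 and 1344 in knockout, with no overlap and a difference of 0.26 (95% interval -0.00032 to 0.52). Of the 6 tested probe sets of the 3 genes, only the dimmer one of Kcnab3 was below 0. After quantile normalization the brighter probe sets of Kcnab1, Kcnab2 and Kcnab3 had differences of 0.12, 0.24 and 0.48.

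The promoters of Hcn2 and Kcnab2 are shown because these were the 2 genes with the smallest unadjusted p among the 22. The sequences, from RefSeq on build GRCm38.p6, are the 250 bases before a transcription start, 5′ to 3′, with capitals marking GC boxes (GGGCGG on either strand, read as CCGCCC on the other) and CCAAT boxes (CCAAT on either strand, read as ATTGG on the other). Matches of the 2 motifs do not overlap in these windows.
Hcn2, chr10:79716384-79716633, plus strand: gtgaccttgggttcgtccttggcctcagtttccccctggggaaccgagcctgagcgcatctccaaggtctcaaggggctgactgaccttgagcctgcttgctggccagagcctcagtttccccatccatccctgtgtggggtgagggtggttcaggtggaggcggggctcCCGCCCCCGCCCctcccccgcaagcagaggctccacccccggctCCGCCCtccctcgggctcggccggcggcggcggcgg
Kcnab2, first of 3 windows, chr4:152477550-152477799, minus strand: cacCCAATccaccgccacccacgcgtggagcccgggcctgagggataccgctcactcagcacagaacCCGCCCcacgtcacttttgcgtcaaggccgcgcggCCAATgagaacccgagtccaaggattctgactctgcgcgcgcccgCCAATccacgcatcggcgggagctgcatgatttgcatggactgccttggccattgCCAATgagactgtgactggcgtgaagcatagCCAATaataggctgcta
The Hcn2 window held 3 GC boxes and 0 CCAAT boxes, and 8.47% of all 32851 windows of the table held 3 or more GC boxes. The Kcnab2 window held 5 CCAAT boxes and 1 GC box, and 0.213% of all windows held 5 or more CCAAT boxes, while the other 2 windows of Kcnab2 held neither motif. Both bounds equal the counts of the windows shown, so these shares are no test. Windows were found for 20 of the 26 genes, 30 in all, of which 33.3% held a GC box and 23.3% a CCAAT box, against 32.7% and 33.8% of all windows. These are matches of letters and no measurement of binding.

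The pore-forming Kv1 subunits that those beta subunits bind had smaller differences at their brightest probe sets. Kcna1, a low-threshold channel of axons, read 10069, 8829 and 8940 in wild type and 9368, 9668 and 9819 in knockout, which lay inside the wild type range. Its difference was 0.080 (95% interval -0.15 to 0.31), and its other 2 tested probe sets had -0.018 and 0.00035. Kcna2, its usual partner in the same channel, read 5887, 5434 and 4712 in wild type and 5564, 6044 and 5088 in knockout at its brightest probe set, a difference of 0.087 (95% interval -0.19 to 0.36). The genotypes overlapped at that probe set and at the next, which had a difference of 0.15.

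The dimmest tested probe set of Kcna2 stood apart from both. It read 572, 441 and 592 in wild type and 694, 743 and 699 in knockout, with no overlap, a fold of 1.37 and a difference of 0.45 (95% interval 0.11 to 0.79, limma adjusted p = 0.598). Kcna6, another axonal and somatic Kv1 subunit, had a difference of -0.067 at its brightest probe set and of 0.17 and 0.19 at the others, with overlap at each. Kcna4, a rapidly inactivating Kv1 subunit, had 2 probe sets that did not pass the filter, with signals of 81.75 to 266.22 and a highest percentile of 58.2.

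Kv3 channels open at depolarized potentials and close fast, which allows neurons to fire at high rates. Kcnc1 read 4291, 4565 and 3266 in wild type and 4242, 4380 and 4311 in knockout at its brightest probe set, and only wild type replicate 3 stood below the rest. The difference was 0.13 (95% interval -0.17 to 0.44). Its dimmest tested probe set had the largest fitted difference of any channel probe set, 1.54, which rested on 1 array: the signals were 274, 23.5 and 210 in wild type and 322, 288 and 341 in knockout. That value has a 95% interval of -0.017 to 3.10, and the middle probe set of the gene had a difference of -0.16.

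Kcnc2, a Kv3 subunit of interneurons, read 1402, 1292 and 1167 in wild type and 1301, 1381 and 1298 in knockout, a difference of 0.073 (95% interval -0.21 to 0.35). Kcnc4, a Kv3 subunit that inactivates, had a difference of -0.14 at its brighter probe set (615 to 945 in wild type and 569 to 764 in knockout) and of 0.54 at its dim one (73.4 to 207 and 88.4 to 292), which passed the filter through knockout alone. The genotypes overlapped at each of these 3 probe sets.

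Kcnd3 was close to constant. This gene encodes a Kv4 subunit of the A-type current, which opens below the firing threshold and delays the next spike. Its brightest probe set read 1071, 1097 and 1092 in wild type and 1094, 1080 and 1067 in knockout, so that the highest signal was 1.03 times the lowest. Of 11636 tested genes, 1 had a smaller ratio of highest to lowest deposited signal. The difference was 0.018 (95% interval -0.23 to 0.27), and the sign of a value this near 0 turned in 4 of 16 alternatives. Its other tested probe set was dim, at 80.1 to 154, with a difference of -0.058. Kcnd2, the other Kv4 member, had differences of 0.016, 0.021 and -0.21 at its 3 tested probe sets from the brightest to the dimmest, with overlap at each.

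Kv7 subunits carry the M-current, a slow brake on repetitive firing. Kcnq3 read 1548, 1719 and 1451 in wild type and 1394, 1572 and 1421 in knockout, a difference of -0.078 (95% interval -0.35 to 0.19). Kcnq5 read 308, 289 and 258 in wild type and 258, 339 and 341 in knockout, a difference of 0.15 with a wider interval of -0.30 to 0.61. Kcnh2, the erg channel known from cardiac repolarization, read 961, 1016 and 1495 in wild type and 1254, 1029 and 1310 in knockout, and wild type replicate 3 was the highest of the 6 arrays. Its difference was 0.10 (95% interval -0.26 to 0.46), so the genotypes could not be told apart in this family or in erg.

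**Figure D2:**
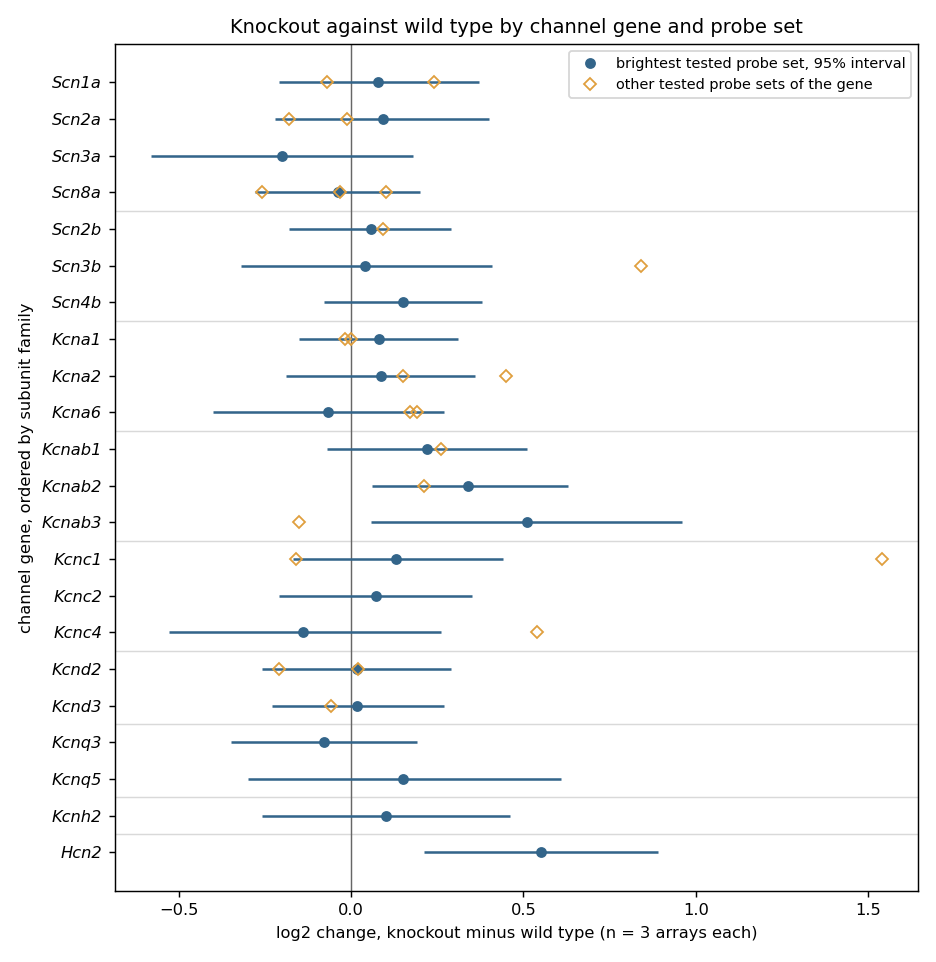
Log2 difference of knockout against wild type (x axis, n = 3 arrays each) for 22 channel genes ordered by family (y axis). Filled points with lines are the tested probe set with the highest mean and its 95% interval, and open diamonds are the other tested probe sets. Intervals of Hcn2, Kcnab2 and Kcnab3 lie above 0, and the diamonds farthest from their gene's filled point are those of Kcnc1 at 1.54 and Scn3b at 0.84.

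The pore-forming sodium channel genes showed no common direction. Scn8a, the main sodium channel of nodes of Ranvier in the adult, read 4672, 4152 and 4062 in wild type and 4171, 4203 and 3932 in knockout at its brightest probe set, a difference of -0.038 (95% interval -0.28 to 0.20). Its other 3 tested probe sets had differences of 0.10, -0.031 and -0.26. The last of these was the only tested channel probe set lower in every knockout array than in every wild type array after scaling, with signals of 896, 827 and 1041 in wild type and 734, 749 and 777 in knockout (95% interval -0.55 to 0.027, limma adjusted p = 0.623). Of the 46 channel probe sets 6 were higher and 1 lower without overlap, against 8.88% and 5.87% of all tested probe sets. Among the 6, the dim probe set of Scn3b had passed the filter through knockout alone. Of the 43 that passed in both genotypes 5 were higher and 1 lower, against 1892 and 1046 of all 21099 such probe sets. Above 0 with or without overlap were 31 of the 46, against 56.1% of all tested probe sets.

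Scn1a, a sodium channel of inhibitory neurons and motor neurons, read 5728, 4905 and 4273 in wild type and 4909, 5206 and 5234 in knockout at its brightest probe set, a difference of 0.078 (95% interval -0.21 to 0.37). Its dimmer probe sets had a lower value on wild type replicate 3 and knockout replicate 1 than on the other arrays: the dimmest read 704, 523 and 245 in wild type and 269, 513 and 534 in knockout. Their differences were 0.24 and -0.071. Scn2a, a channel of unmyelinated axons and initial segments, had differences of 0.093, -0.18 and -0.011 at its 3 tested probe sets, with overlap at each.

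Scn3a, known as the channel of the embryonic nervous system, read 387, 385 and 384 in wild type and 304, 312 and 376 in knockout at its only tested probe set. It had the lowest difference of the 22 genes, -0.20 (95% interval -0.58 to 0.18), and the genotypes did not overlap before each array was scaled but overlapped after. Scn9a, the sodium channel of peripheral nociceptors, had 5 probe sets, none of which passed the filter. Their signals were 4.82 to 149.9, and none reached the median of its array. Scn10a, Scn11a, Trpv1 and Avil, other genes of dorsal root ganglion neurons, did not pass either, with highest signals of 77 to 192.

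The sodium channel beta subunits, which also act as cell adhesion molecules, were above 0 by small amounts. Scn4b, which supports resurgent current, read 4205, 4151 and 4283 in wild type and 4356, 4418 and 5008 in knockout. All 3 knockout arrays were above every wild type array, with knockout replicate 3 the highest. The fold was 1.11 and the difference 0.15 (95% interval -0.08 to 0.38, limma adjusted p = 0.699, range over the alternatives 0.394 to 0.965). It was 0.084 without knockout replicate 3, 0.047 after quantile normalization and 0.34 with the median of all probe sets. Hcn2 and Scn4b were thus 2 of 22 genes that were higher without overlap, and 0 were lower, where 10.3% of all tested genes were higher and 4.73% lower in this way.

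Scn2b, which lies next to Scn4b in the RefSeq gene table, had differences of 0.058 and 0.092 at its 2 tested probe sets, with signals of 2053 to 2364 in wild type and 2164 to 2392 in knockout at the brighter. Scn3b read 787, 785 and 853 in wild type and 730, 1059 and 703 in knockout at its brighter probe set, so that knockout replicate 2 was the highest and the other 2 knockout arrays the lowest, and the difference was 0.040 (95% interval -0.32 to 0.41). Its dim probe set read 97.2, 109 and 66.8 in wild type and 148, 195 and 133 in knockout, with no overlap and a difference of 0.84 (95% interval -0.13 to 1.81). That probe set passed the filter through the knockout arrays alone.

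Probe sets of one gene often disagreed on direction. Of the 15 genes with 2 to 4 tested probe sets, 10 had differences of both signs and 5 of one sign, and the median distance between the lowest and highest difference of a gene was 0.28. Scn3b, Kcnc4 and Kcnd3 are counted here through a dim probe set that passed the filter in knockout alone. The 5 genes of one sign were Scn2b, Scn3b, Kcna2, Kcnab1 and Kcnab2, and all were above 0. Of the tested members that neighbour each other in the RefSeq table, Scn2b and Scn4b had differences of one sign. Kcna1 had 0.080 and the adjacent Kcna6 -0.067, while Kcna5, on its other side and no member, had 0.085. Scn2a had 0.093 and the adjacent Scn3a -0.20.

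The channel genes differed between single arrays of one genotype by more than between the genotype means. For each array the deviation of each gene from its mean over the 6 arrays was taken on the log2 scale. The median deviation of the 22 genes came to 0.071, -0.043 and -0.13 in the wild type mice and to -0.001, 0.033 and 0.072 in the knockout mice, in the order of their numbers. The genotypes overlapped, and wild type replicate 1 stood at the level of knockout replicate 3. Of the 22 genes, 12 had their lowest value on wild type replicate 3 and 8 their highest on wild type replicate 1. Over all tested genes 36.5% were lowest on wild type replicate 3 and 17.3% highest on wild type replicate 1, against 54.5% and 36.4% of the channel genes.

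Marker genes of cells in or near the cord were summed on the same arrays. In bulk tissue fewer cells of a type and less RNA per cell cannot be told apart. Of 10 tested neuron markers 9 were above 0, with a median difference of 0.18, and their summed signal was 115858 to 136792 in wild type and 139062 to 141574 in knockout. The 3 tested motor neuron markers of 6 were above 0, with sums of 1502 to 2082 and 2105 to 2751, while Chat, Isl1 and Mnx1 did not pass the filter. Much of these narrowly separate sums was Prph (841 to 1219 and 1206 to 1650). Differences were 0.41 in Prph, 0.34 in Slc18a3 and 0.061 in Slc5a7, and only Slc18a3 did not overlap. The median deviations of the 3 genes overlapped (-0.51 to 0.061 and 0.035 to 0.36). For oligodendrocytes 5 of 7 tested markers were above 0, with sums of 110202 to 116189 and 126884 to 140067. Much of these sums was Mbp (38048 to 40152 and 46224 to 52806) and Cnp (21609 to 24935 and 27880 to 30890). Each of the other tested oligodendrocyte markers overlapped between genotypes, and Mog and Cldn11 were below 0. Schwann cells of nerve roots had 2 of 3 above 0, with sums of 13544 to 15801 and 16306 to 22851. Most of that sum was Pmp22, a myelin protein of Schwann cells, and without it the sums of the other 2 genes overlapped at 1020 to 1239 and 1015 to 1383. These 2 genes went opposite ways. Ncmap had a difference of 0.38 and was higher without overlap after scaling. Egr2, a transcription factor of myelinating Schwann cells, had a difference of -0.29, with overlap. The part of these markers in the differences of Hcn2 and the Kcnab genes was not tested.

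Astrocyte markers had 5 of 6 above 0 with a median difference of 0.066, and their sums overlapped at 47622 to 53054 and 50871 to 53210. Single astrocyte markers ran from -0.19 in Aqp4 to 0.59 in Gfap (95% interval 0.028 to 1.16), both with overlap, and Slc1a3 was higher without overlap at 0.26. Microglia markers had 2 of 6 above 0 with a median of -0.11 and sums of 8893 to 11706 and 8667 to 9861. They ran from -0.37 in C1qa (95% interval -0.73 to -0.022) to 0.19 in Tmem119, both with overlap. Markers of parvalbumin and glycinergic neurons, many of which use Kv3 channels, had 3 of 5 above 0 with a median of 0.13 and sums of 15694 to 17903 and 17568 to 18983. Skeletal muscle markers had sums of 6141 to 10809 and 6506 to 18150, highest on wild type replicate 3 and knockout replicate 2, and all 7 tested were above 0. That list shares Pvalb, which muscle also expresses, with the parvalbumin neurons, and without it the sums were 1024 to 5944 and 1507 to 11801. None of the tested markers was listed at 0 on any array, but neither was any other probe set. This therefore does not bear on which cells were present.

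**Figure D3:**
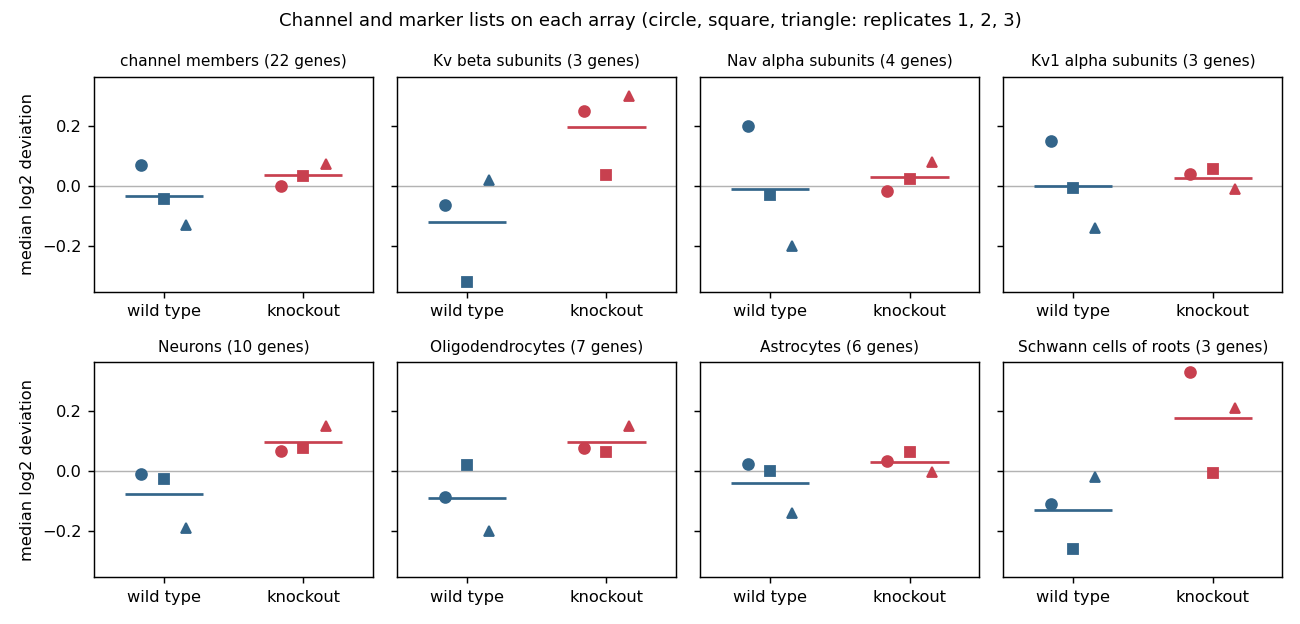
Median log2 deviation of the genes of a list from their means over the 6 arrays (y axis), with 1 point per array, horizontal bars at the genotype means, blue for wild type and red for knockout. The medians of the 22 channel genes overlap between genotypes (-0.13 to 0.071 and -0.001 to 0.072). Those of the 3 Kv beta genes, narrowly (-0.32 to 0.020 and 0.037 to 0.30), and the 10 neuron markers (-0.19 to -0.0088 and 0.066 to 0.15) do not. Nor do those of the oligodendrocyte markers (-0.2 to 0.02 and 0.065 to 0.15) and, narrowly, the Schwann cell markers (-0.26 to -0.019 and -0.0067 to 0.33). Taken singly, each of the 3 Kv beta genes overlaps between genotypes at its brighter probe set.

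The Kv beta genes were the one channel family of more than 1 tested gene with a median difference above 0.2. They had 0.34 over 3 genes, on the arrays -0.064, -0.32 and 0.020 in wild type and 0.25, 0.037 and 0.30 in knockout. The pore-forming Kv1 genes had 0.080 over 3 genes, on the arrays 0.15, -0.0069 and -0.14 in wild type and 0.038, 0.055 and -0.012 in knockout. The families differed in how they ordered the wild type arrays, since Kv1 genes were lowest on wild type replicate 3 and Kv beta genes on wild type replicate 2. The other families had medians of 0.020 for sodium channel alpha subunits, 0.058 for sodium channel beta subunits, 0.073 for Kv3, 0.017 for Kv4 and 0.038 for Kv7. The difference between families was not tested.

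Other channel genes and channel partners were listed by family to set beside the 22. Of 61 listed, 31 were tested, 21 were above 0 and 10 below, with a median difference of 0.085, and 0 passed at an adjusted or unadjusted p under 0.05 (limma), against 5.53% higher and 2.92% lower of all tested genes at the unadjusted one. Their smallest adjusted p was 0.612. The 9 tested potassium channel alpha subunits of this list had 4 above 0 and a median of -0.21, and the 21 tested partners and anchors had 16 above 0 and a median of 0.11.

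The spread over all 6 arrays, without regard to genotype, was small for most channel genes. The median ratio of the highest to the lowest deposited signal was 1.33 over the 22 channel genes and 1.44 over all 11636 tested genes, and 21 of the 22 were under 2-fold against 84.1% of all tested genes. The channel genes were not set beside genes of a like signal level. After Kcnd3 the steadiest were Kcna1 at 1.14, Scn2b at 1.17, Scn8a at 1.19 and Kcnc2 at 1.20. The most variable were Kcnab3 at 2.05, Hcn2 at 1.86, Kcnc4 at 1.66 and Kcnh2 at 1.56. Within wild type the coefficient of variation was 0.379% in Scn3a and 33.6% in Kcnab3, and within knockout it ran from 1.23% in Kcnd3 to 23.9% in Scn3b.

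**Figure D4:**
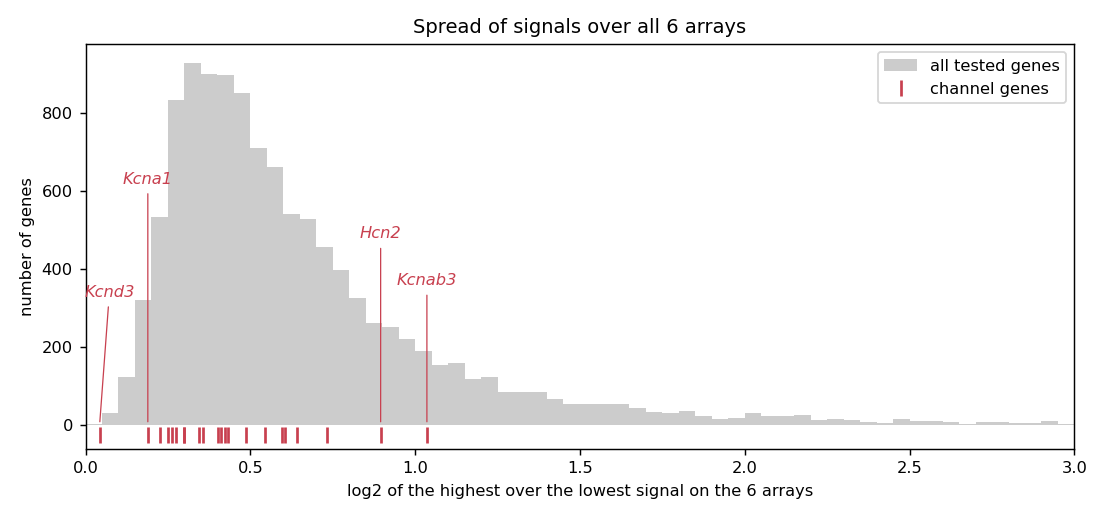
Number of tested genes (y axis) by the log2 of the highest over the lowest deposited signal on the 6 arrays (x axis), with grey bars for all tested genes and red ticks for the 22 channel genes. Kcnd3 lies at the left edge, at a ratio of 1.03, and Kcnab3 is the channel gene farthest to the right, at 2.05. The 95 genes with a ratio of 8 or more are not drawn.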

How the data were processed

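Total RNA of 6 spinal cords was hybridized to 1 array each. The authors deposited linear intensities computed with MAS 5.0 and GCOS 1.4, as named in the submitters' processing notes. The mean of each array without the lowest and highest 2% of values was 500.0, so the arrays had been scaled to a common target. Detection calls were not analysed. After the filter, intensities were scaled to the median of the tested probe sets of the array and converted to log2, close to the filter and the per-chip median of the series' design text. The median of all probe sets was not the main choice because it shifted with the dim signals. Genotypes were compared in limma 3.58.1 (R 4.3.3, lmFit, eBayes with trend, two-sided, Benjamini-Hochberg over 23525 probe sets). The model was also run on simulated data with independent noise. Those data held no shift common to an array, so they do not bear on such shifts here.

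Symbols came from the platform's annotation, where the gene identifiers of 34754 probe sets were matched to RefSeq's gene table of GRCm38.p6. The 64 controls were left out. Members and lists were chosen with earlier results of these data known. By rule, signals on each array are given for genes whose representing probe set had an unadjusted p under 0.05 or no overlap, and further members, chosen after their values were seen, are given in the same way. Precision is limited by the number of arrays. The sources used here gave no batch. Alternatives covered scaling, quantile normalization, filters at the 25th and 75th percentile or none, an offset of 0.25 times the median signal, no trend, each array left out, a replicate block, the mean of a gene's probe sets, and the methods' t-test (unadjusted p under 0.05 and a fold of at least 1.2).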

Additional observations from a re-analysis of the deposited data

How the results depend on the processing

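The log2 differences of Hcn2, Kcnab2, Kcnab3 and Scn4b stayed above 0 and short of the threshold in each of the 16 alternative fits. Of the other 18 tested channel genes, Kcnab1, Scn3a and Kcnq5 kept their sign in each fit that held them, and the rest turned in 1 to 5 of 16, Kcnd2 in 5. The median difference of the channel genes, 0.079, was 0.27 with the median of all probe sets, where all tested probe sets shifted by 0.23, -0.0088 after quantile normalization, and 0.012 to 0.16 when each array was left out. No channel probe set passed in any alternative limma fit. The methods' t-test gave 3 of 46 at its unadjusted threshold, against 1222 of all 23525 tested probe sets, and 0 after adjustment. The 3 were of Hcn2, Kcna2 and Scn3b, the last being the probe set that passed the filter through knockout alone. Over all probe sets 1 was called with the settings used here, 0 without the trend, 4 with the replicate block, 0 to 3 when each array was left out, 3 with the deposited scaling without wild type replicate 3, and 1222 (645 higher and 577 lower) by the methods' t-test, 0 after adjustment. The replicate block rests on numbers that no label ties to pairs: same-numbered arrays had correlations of -0.035, 0.074 and 0.114 in their deviations. Scn9a, Kcna4 and Hcn3 did not pass the filter and were not compared.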
